A study of Mus musculus with 12 samples.

Results

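The Wnt pathway genes described here are 10 members of the ligand, agonist and inhibitor side of the pathway, measured on 12 arrays of sorted mouse lung fibroblasts. They comprise the ligands Wnt2, Wnt2b, Wnt5a and Wnt11, the R-spondins Rspo1 and Rspo3, the secreted proteins Notum and Dkk3, and the intracellular proteins Nkd2 and Axin2. They were chosen by name, as were the lists used below, with earlier results of these data known. The counts that passed are therefore not an independent test. Each gene is represented by the brightest, on average, of its annotated probe sets. All 10 had a probe set, among 17097 genes with one, and 9 of the 10 passed the filter on dim signals that left 11073 genes for testing. Rspo3 did not pass and is given by its values.

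Wnt ligands are lipid-modified secreted proteins that bind Frizzled receptors. With the co-receptors Lrp5 and Lrp6 they stabilise beta-catenin, which then acts with TCF and LEF factors on target genes, whereas Wnt5a and Wnt11 act largely through receptors and routes that do not need beta-catenin. R-spondins bind Lgr receptors and keep the ubiquitin ligases Znrf3 and Rnf43 from removing Frizzleds, and Notum removes the lipid that a Wnt needs for binding. In the mouse lung, Wnt2 and Wnt2b of the mesoderm are needed for the lung to form, and in adult alveoli fibroblasts are a source of Wnts for neighbouring epithelial progenitors.

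The cells were sorted by PDGFRa-GFP signal into a bright and a dim subset, and each array holds amplified RNA of 2000 interstitial lung fibroblasts taken 5 days after surgery. The tested conditions were partial pneumonectomy in animals expressing a dominant negative FGFR2 (PNX-dnFGFR) and partial pneumonectomy without it (PNX), with a sham operation (SHAM) as the control. Pneumonectomy removes part of the lung and is followed by compensatory regrowth, the sham operation leaves only the surgical trauma, and the dominant negative receptor is described as blocking myofibroblast activation. Each of the 6 groups (bright PNX-dnFGFR, bright PNX, bright SHAM, dim PNX-dnFGFR, dim PNX and dim SHAM) holds 2 arrays, and all carry the GFP. The labels name them biological replicates without saying whether animals were pooled, and they do not name the driver of the dominant negative receptor, the strain, the sex or the age. P-values therefore measure the spread between these samples.

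The arrays did not follow the name of the gate for its own gene. Pdgfra, the gene of the receptor whose GFP was sorted, ranged from 4.84 to 5.54 log2 units in bright cells and from 6.66 to 7.13 in dim cells, 6 arrays each. The subsets are called here by their labels. The mean of 10 fibroblast markers was 9.90 to 10.08 on bright arrays and 9.04 to 9.39 on dim arrays. Its members differed in direction. Lum read 8.21 to 8.93 on bright and 2.34 to 3.06 on dim arrays, and Dcn 11.97 to 12.21 and 5.72 to 8.48. Col1a1, Col1a2 and Vim were also higher on every bright array. Tcf21, like Pdgfra, was higher on every dim array, at 10.218 to 10.796 against 6.99 to 8.687 on bright arrays. Col3a1, Mfap4 and Fn1 overlapped between the subsets. A list of 11 markers of adventitial fibroblasts had means of 9.76 to 10.43 on bright arrays and 6.998 to 7.44 on dim arrays. One of 11 markers of alveolar fibroblasts had means of 7.55 to 8.85 on bright arrays and 10.84 to 10.97 on dim arrays. Markers of smooth muscle and pericytes, 9 genes, had means of 6.35 to 6.69 on bright arrays and 5.10 to 5.47 on dim arrays. Means of 9 lymphocyte markers were 4.49 to 4.97 on bright arrays and 5.09 to 5.53 on dim arrays. The means of both lists thus separated the subsets, but most of their genes did not. Kcnj8, Pdgfrb and Acta2 were higher on every bright array, and all other genes of both lists overlapped. Des read 5.29 to 6.65 on bright and 6.405 to 7.05 on dim arrays. Epithelial markers gave means of 6.69 to 8.28 on bright arrays and 7.12 to 8.42 on dim arrays, and Sftpc, the surfactant gene of alveolar type 2 cells, read 11.36 to 12.06 on bright arrays and 11.58 to 12.43 on dim arrays. The part of these cell types in the results below was not tested. In bulk samples of this kind, fewer cells of a type and less RNA per cell cannot be told apart.

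Promoters in RefSeq's table (build GRCm38.p6, 250 bases before to 50 after the gene's start) were matched for 6 of the 10 genes, and 4 are shown because the results turn on these genes. Wnt2 and Wnt2b are ligands whose signals lay on opposite sides of the sort, Axin2 is a general target of the pathway, and Wnt11 holds the TCF and LEF core that the others lack. Each is written from 5′ to 3′ along its gene. The capitals mark GC boxes (GGGCGG on either strand) and, in Wnt11, the core CTTTGAT, which is present on the opposite strand and directly follows a GC box.
Wnt2 (chr6:18030396-18030695, minus strand): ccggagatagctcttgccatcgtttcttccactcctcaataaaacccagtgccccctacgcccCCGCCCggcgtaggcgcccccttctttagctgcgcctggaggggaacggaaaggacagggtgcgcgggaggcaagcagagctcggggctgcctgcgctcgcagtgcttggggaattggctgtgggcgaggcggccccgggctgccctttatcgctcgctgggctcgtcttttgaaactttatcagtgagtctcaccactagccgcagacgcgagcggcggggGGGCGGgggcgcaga
Wnt2b (chr3:104961660-104961959, minus strand): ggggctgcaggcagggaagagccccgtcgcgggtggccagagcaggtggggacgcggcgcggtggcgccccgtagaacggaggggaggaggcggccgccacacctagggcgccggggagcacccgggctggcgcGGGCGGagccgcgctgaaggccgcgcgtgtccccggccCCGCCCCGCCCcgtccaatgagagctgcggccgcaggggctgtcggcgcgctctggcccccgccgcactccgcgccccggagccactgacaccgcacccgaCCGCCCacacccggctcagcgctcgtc
Axin2 (chr11:108920099-108920398, plus strand): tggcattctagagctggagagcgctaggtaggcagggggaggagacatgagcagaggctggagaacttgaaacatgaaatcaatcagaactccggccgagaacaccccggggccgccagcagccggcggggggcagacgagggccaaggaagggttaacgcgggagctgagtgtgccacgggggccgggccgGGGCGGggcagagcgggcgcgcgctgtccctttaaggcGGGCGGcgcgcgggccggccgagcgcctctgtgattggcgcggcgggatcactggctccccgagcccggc
Wnt11 (chr7:98834862-98835161, plus strand): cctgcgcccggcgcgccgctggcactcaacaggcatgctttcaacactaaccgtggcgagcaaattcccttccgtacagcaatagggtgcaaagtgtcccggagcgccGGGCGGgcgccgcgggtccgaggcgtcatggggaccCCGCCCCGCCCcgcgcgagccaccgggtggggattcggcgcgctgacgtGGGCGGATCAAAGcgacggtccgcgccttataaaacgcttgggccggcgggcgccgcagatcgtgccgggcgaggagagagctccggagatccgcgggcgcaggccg
The Wnt2b window was the richest in C and G of the 4, at 79.7% with 43 CpG pairs, against 65.7% and 27 in Wnt2, 70% and 31 in Axin2 and 71.3% and 45 in Wnt11. The median over 32851 promoters was 52.7% and 7 pairs. Of the TCF and LEF cores searched on both strands, CTTTGAA was present in 5.14% of all promoters, CTTTGAT in 3.73%, CTTTGTA in 3.63% and CTTTGTT in 5.85%. Wnt11 alone among the matched genes held one, CTTTGAT in the window shown and none in its other window. Any of the 4 cores was present in 16.9% of all promoters and in 1 of the 7 windows matched. GC boxes were present in 35.7% of all promoters, and in those of Wnt2, Wnt2b, Wnt11 and Axin2, while the Rspo1 and Nkd2 windows held none. These matches describe the letters of these windows only.

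The first comparison asks how the 2 sorted subsets differ in Wnt signals. The ligands were divided between them: Wnt2 was about 6.72-fold lower in bright than in dim cells, Wnt5a 6.64-fold higher and Wnt2b 2.73-fold higher, as means over the 3 conditions. Notum, which inactivates Wnts, was 4.66-fold lower in bright cells and Axin2 1.83-fold lower. Of the 9 genes tested, 4 were higher in bright cells and 3 lower, whereas Nkd2 and Dkk3 did not pass. With every signal under the filter level of 5.10 set to that level, here called the held value, 6 of the 9 passed and Rspo1 no longer did. Of all 11073 genes 5112 passed with held values. The subsets differ widely: 47.8% of all 11073 genes passed this comparison, 28.5% higher and 19.3% lower, so the share of Wnt genes is to be read against that. Rspo1 reached the filter on bright arrays alone, and Notum on the 6 dim arrays and 1 bright array, so that these genes entered the test through the subset in which they are high.

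**Figure D1:**
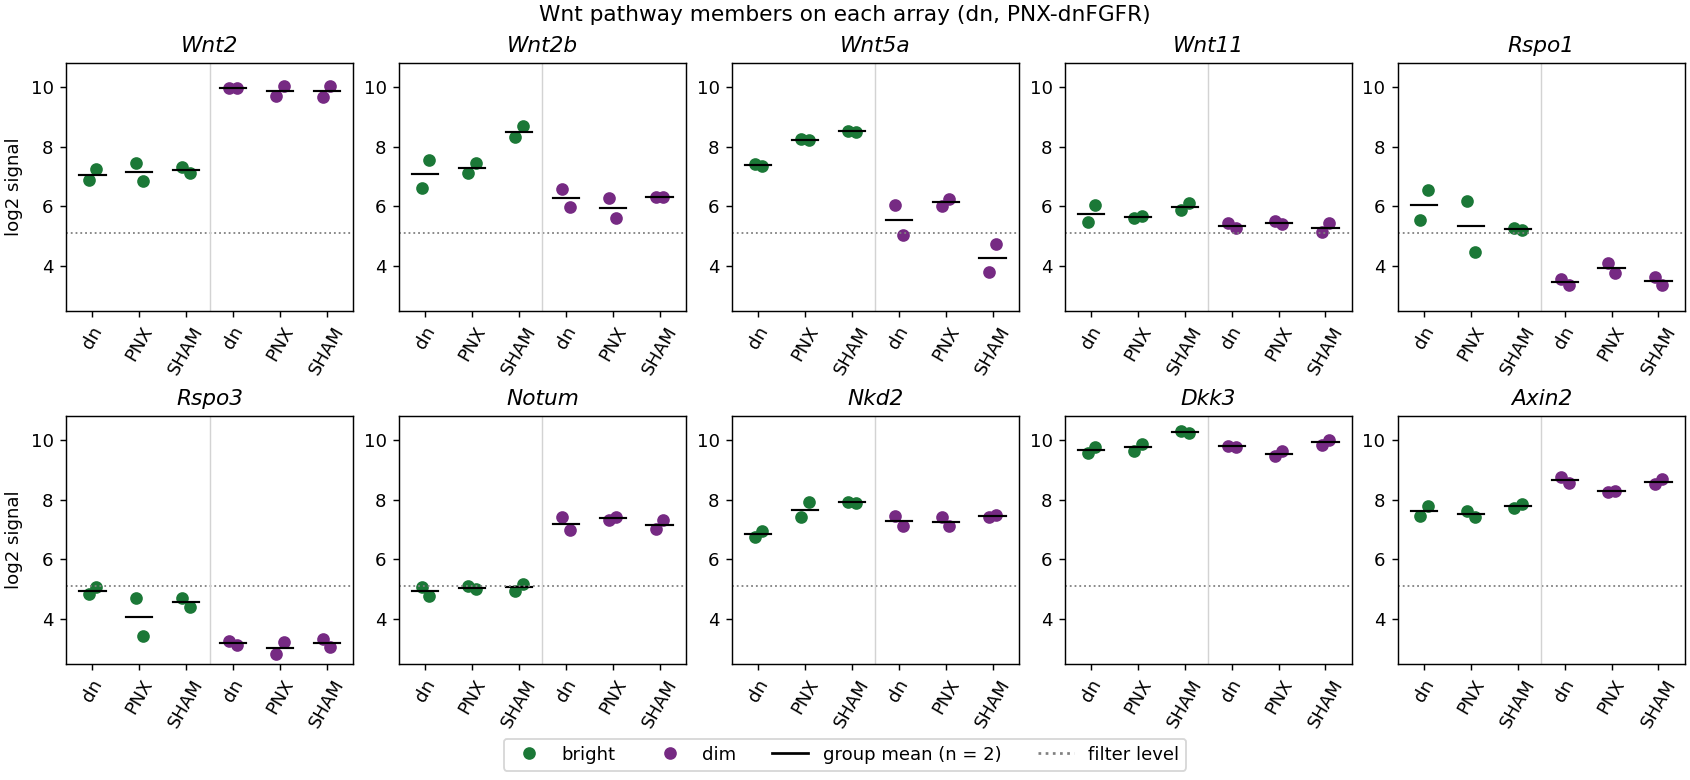
The log2 signal (vertical axis) of each of the 10 genes on each array, with bright arrays in green left of dim arrays in purple and the conditions PNX-dnFGFR, PNX and SHAM along the horizontal axis; black bars are means of 2 arrays and the dotted line is the filter level of 5.10. Wnt2, Notum and Axin2 lie lower on every bright array than on any dim array, Wnt2b, Wnt5a, Rspo1 and Rspo3 lie higher, and levels of different genes are not comparable. The other Rspo3 probe set, not drawn, overlapped between the subsets.

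Among the ligands, Wnt2 separated the subsets in each condition. It read 6.89 and 7.24 on bright PNX-dnFGFR arrays, 7.46 and 6.86 on bright PNX arrays and 7.32 and 7.12 on bright SHAM arrays. On dim arrays it read 9.95 and 9.97 with PNX-dnFGFR, 9.69 and 10.05 with PNX and 9.67 and 10.04 with SHAM. Every bright array lay below every dim array, and within each subset the arrays of the 3 conditions overlapped. Bright minus dim came to a log2 difference of -2.75 (± 0.14 SE, 6 arrays per subset, adjusted p = 5.36e-07), with -2.90 in PNX-dnFGFR, -2.71 in PNX and -2.63 in SHAM (± 0.24 SE each, adjusted p = 3.91e-05, 8.87e-05 and 9.64e-05). Each of these calls was kept under all 9 other settings of the analysis and without any of the 12 arrays.

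Wnt5a, the ligand best known for routes independent of beta-catenin, had the opposite side. It read 7.42 and 7.37 on bright PNX-dnFGFR arrays, 8.25 and 8.22 on bright PNX arrays and 8.54 and 8.49 on bright SHAM arrays. Dim arrays read 6.03 and 5.05 with PNX-dnFGFR, 6.01 and 6.26 with PNX and 3.81 and 4.73 with SHAM. The subsets did not overlap, and the 2 dim SHAM arrays were the lowest of all, both under the filter level. Bright minus dim was 2.73 (± 0.19 SE, adjusted p = 4.59e-06) over the conditions. It was 1.85 in PNX-dnFGFR, 2.10 in PNX and 4.24 in SHAM (± 0.34 SE each, adjusted p = 0.00272, 0.0024 and 4.92e-05). As held values the SHAM difference became 3.41 and that over the conditions 2.45, and both passed. The other Wnt5a probe set gave 2.42 over the conditions (adjusted p = 3.99e-07) and 3.49 in SHAM.

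Wnt2b, a close relative of Wnt2, was higher in bright cells. Its signals were 6.62 and 7.55 on bright PNX-dnFGFR arrays, 7.13 and 7.47 on bright PNX arrays and 8.31 and 8.68 on bright SHAM arrays. They were 6.57 and 5.99 on dim PNX-dnFGFR arrays, 6.28 and 5.60 on dim PNX arrays and 6.32 and 6.31 on dim SHAM arrays. All bright arrays lay above all dim arrays, with the first bright PNX-dnFGFR array and the first dim PNX-dnFGFR array close together, and the bright SHAM arrays stood above the other bright arrays. Bright minus dim was 1.45 (± 0.20 SE, adjusted p = 0.000264) over the conditions and 1.36 in PNX (adjusted p = 0.0215), while SHAM had 2.18 (adjusted p = 0.00202), each ± 0.34 SE within a condition. In PNX-dnFGFR it was 0.80 and did not pass (adjusted p = 0.0951), but did without the first bright PNX-dnFGFR array (1.26, adjusted p = 0.0312). The PNX value no longer passed without the first bright array (1.53, adjusted p = 0.0528), the second bright array (1.195, adjusted p = 0.0933) or the second dim array (1.02, adjusted p = 0.15). The difference between PNX-dnFGFR and SHAM in this contrast, -1.37 ± 0.48, did not pass when tested itself (adjusted p = 0.269).

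Wnt11 differed least of the 4 ligands, and its subsets overlapped. The 6 bright arrays ranged from 5.47 to 6.10 with a median of 5.78, and the 6 dim arrays from 5.15 to 5.51 with a median of 5.42. The highest were the 2 bright SHAM arrays at 5.89 and 6.10 and the second bright PNX-dnFGFR array at 6.03. Bright minus dim was 0.43 (± 0.11 SE, adjusted p = 0.0113) over the conditions and 0.70 in SHAM (± 0.20 SE, adjusted p = 0.0345), while PNX-dnFGFR had 0.40 (adjusted p = 0.147) and PNX 0.20 (adjusted p = 0.543). The SHAM value no longer passed without any 1 of the 4 SHAM arrays (0.56 to 0.85, adjusted p = 0.0563 to 0.175) or without either dim PNX array (0.70, adjusted p = 0.0511). Without the first bright PNX-dnFGFR array the PNX-dnFGFR value rose to 0.68 and passed (adjusted p = 0.0394).

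The R-spondins were close to the detection range of the arrays. Rspo1 read 5.55 and 6.56 on bright PNX-dnFGFR arrays, 6.17 and 4.49 on bright PNX arrays and 5.28 and 5.22 on bright SHAM arrays. It read 3.57 and 3.37 on dim PNX-dnFGFR arrays, 4.10 and 3.76 on dim PNX arrays and 3.63 and 3.36 on dim SHAM arrays. The bright arrays lay above all the dim ones, the 2 bright PNX arrays stood far apart, and every dim array was under the filter level. Bright minus dim was 1.92 (± 0.28 SE, adjusted p = 0.000422) over the conditions, 2.59 in PNX-dnFGFR (adjusted p = 0.00313) and 1.40 in PNX (adjusted p = 0.0769), while SHAM had 1.75 (adjusted p = 0.0326). With held values these became 0.55 (adjusted p = 0.0592), 0.96 (adjusted p = 0.0719), 0.54 (adjusted p = 0.365) and 0.15 (adjusted p = 0.846), so that no call remained. The PNX value was 2.24 without the second bright PNX array (adjusted p = 0.00435) and 0.56 without the first, and the SHAM call was lost without any 1 of the 4 SHAM arrays (1.62 to 1.89, adjusted p = 0.0844 to 0.137).

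Rspo3 stayed under the filter level on all 12 arrays. It read 4.83 and 5.06 on bright PNX-dnFGFR arrays, 4.72 and 3.45 on bright PNX arrays and 4.71 and 4.41 on bright SHAM arrays, against 2.83 to 3.33 on the 6 dim arrays. The bright arrays were again above the dim ones, with the second bright PNX array the nearest to them. The other Rspo3 probe set did not separate the subsets, at 3.005 to 3.84 on bright arrays and 2.83 to 3.37 on dim arrays. No difference or test is given for Rspo3, since no array was above the filter level.

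Markers of the mesothelium, the cell layer that covers the lung, differed among the bright arrays as the R-spondins did. The mean of 10 such markers was 5.83 and 6.22 on bright PNX-dnFGFR arrays, 6.74 and 4.30 on bright PNX arrays and 5.42 and 4.78 on bright SHAM arrays, against 3.90 to 5.24 on dim arrays. The second bright PNX array, lowest of the bright arrays in Rspo1 and Rspo3, was also lowest in this mean, and the first dim PNX array, highest of the dim arrays in Rspo1, was highest of the dim arrays in this mean, though the lowest of them in Rspo3 at 2.83. Upk3b read 8.83 and 5.10 on the 2 bright PNX arrays, and Wt1 5.55 and 2.72. Of the 10 markers, 3 that define the lineage, Msln, Muc16 and Gpm6a, were above the filter level on no array. Nkain4 read 10.02 to 11.12 on bright and 7.13 to 8.65 on dim arrays, and Krt19 6.51 to 8.68 on bright and 5.70 to 7.92 on dim arrays. Upk1b did not follow the sort, with 3.99 to 8.49 on bright and 3.77 to 10.67 on dim arrays and its highest signals on the 2 dim SHAM arrays. The ligand Wnt4 read 8.71 and 6.95 on the 2 bright PNX arrays, the R-spondin receptor Lgr5 6.07 and 4.17 and the antagonist Sfrp2 10.24 and 5.71. Each was lower on the second array, as this mean was. Over all bright arrays, however, each was lowest on the second SHAM array, at 6.65, 4.15 and 5.23. This mean was lowest on the second PNX array. Other Wnt genes higher in bright cells did not follow this mean: Fzd2 read 9.62 and 10.57 on the 2 bright PNX arrays and Fzd4 7.91 and 8.20. The part of mesothelial cells in the values of the R-spondins, Wnt4, Lgr5 and Sfrp2 was not tested.

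**Figure D2:**
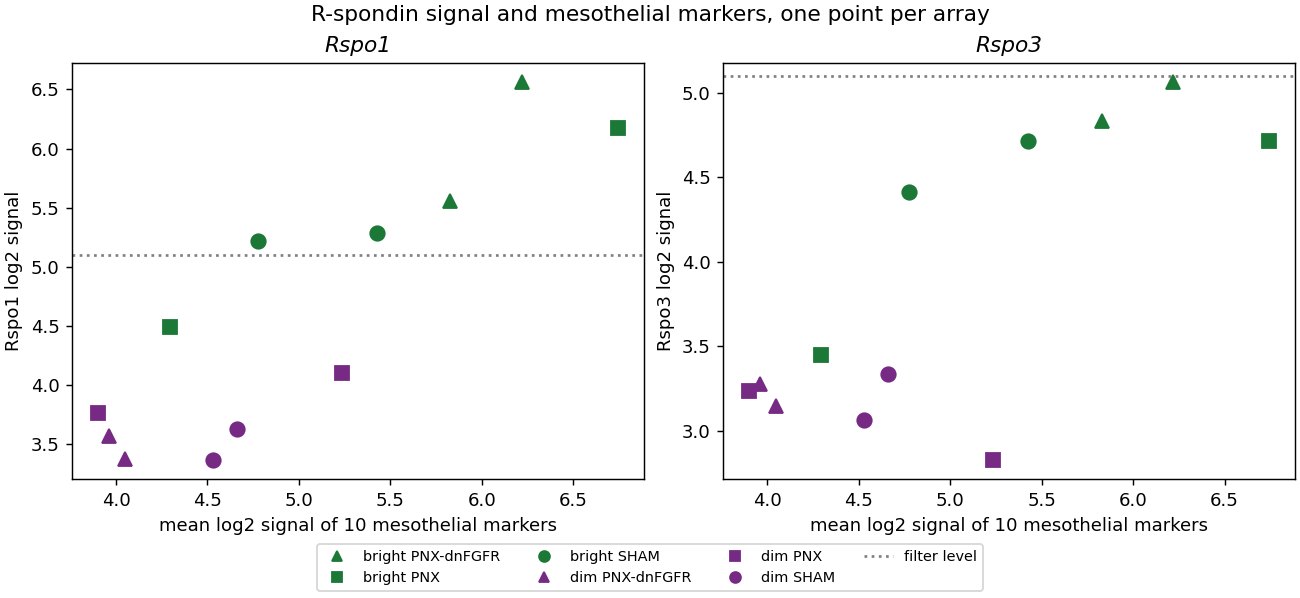
The log2 signal of Rspo1 (left) and Rspo3 (right) on the vertical axes against the mean log2 signal of 10 mesothelial markers on the horizontal axis, 1 point per array, with bright arrays in green and dim arrays in purple; the dotted line is the filter level of 5.10. The first and second bright PNX arrays lie at 6.74 and 4.30 on the marker axis and at 6.17 and 4.49 in Rspo1.

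Among the inhibitors, Notum, the secreted enzyme that strips Wnts of their lipid, showed the clearest split. It read 5.08 and 4.78 on bright PNX-dnFGFR arrays, 5.10 and 5.02 on bright PNX arrays and 4.95 and 5.18 on bright SHAM arrays. On dim arrays it read 7.41 and 6.98 with PNX-dnFGFR, 7.33 and 7.41 with PNX and 7.0 and 7.32 with SHAM. Bright arrays lay around the filter level and all dim arrays well above it, with no order among conditions. Bright minus dim was -2.22 (± 0.11 SE, adjusted p = 5.61e-07) over the conditions, with -2.26 in PNX-dnFGFR, -2.31 in PNX and -2.09 in SHAM (± 0.19 SE each, adjusted p = 5.1e-05, 6.64e-05 and 0.000118). The held value over the conditions was -2.13, and each of the 4 calls was kept under all 9 other settings and without any array.

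Dkk3, a divergent member of the Dickkopf family of secreted Wnt modulators, and Nkd2, an intracellular antagonist that binds Dishevelled, did not separate the subsets. Dkk3 ranged from 9.56 to 10.29 on bright arrays and from 9.44 to 9.997 on dim arrays, with a bright minus dim value of 0.15 (± 0.08 SE, adjusted p = 0.176). Nkd2 ranged from 6.73 to 7.93 on bright arrays and from 7.12 to 7.47 on dim arrays, with 0.14 (± 0.12 SE, adjusted p = 0.342). Both overlapped between the subsets, and neither passed in any condition. Their values in PNX-dnFGFR lay on the other side of 0 from those in PNX and SHAM. Nkd2 had -0.43 in PNX-dnFGFR (adjusted p = 0.13) and 0.40 in PNX (adjusted p = 0.212), while SHAM had 0.46 (adjusted p = 0.157), each ± 0.20 SE. Dkk3 had -0.13 in PNX-dnFGFR (adjusted p = 0.542) and 0.22 in PNX (adjusted p = 0.348), while SHAM had 0.35 (adjusted p = 0.132), each ± 0.15 SE.

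Axin2, a scaffold of the beta-catenin destruction complex and itself a common target of beta-catenin, was lower in bright cells. Its signals were 7.45 and 7.80 on bright PNX-dnFGFR arrays, 7.63 and 7.41 on bright PNX arrays and 7.72 and 7.84 on bright SHAM arrays. They were 8.77 and 8.56 on dim PNX-dnFGFR arrays, 8.26 and 8.29 on dim PNX arrays and 8.51 and 8.69 on dim SHAM arrays. No bright array reached a dim one, and among dim arrays the 2 PNX arrays were the lowest. Bright minus dim was -0.87 (± 0.10 SE, adjusted p = 6.82e-05) over the conditions, -1.04 in PNX-dnFGFR (adjusted p = 0.00129) and -0.75 in PNX (adjusted p = 0.0119), while SHAM had -0.82 (adjusted p = 0.00776), each ± 0.16 SE within a condition. The PNX call was lost without the first dim (-0.77, adjusted p = 0.0549), second bright (-0.64, adjusted p = 0.0586) or second dim PNX array (-0.73, adjusted p = 0.0702), and the SHAM call without the first bright (-0.76, adjusted p = 0.0551) or second dim SHAM array (-0.73, adjusted p = 0.053).

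Within PNX-dnFGFR, bright cells had 2 of the 9 genes tested above dim cells and 3 below, where 34.4% of all genes passed (21% above and 13.5% below). In PNX the counts were 2 above and 3 below, where 18.4% of all genes passed (11.4% above and 7.07% below). In SHAM they were 4 above and 3 below, where 19% of all genes passed (11.5% above and 7.53% below). The median difference of the 9 genes was -0.13 in PNX-dnFGFR, 0.22 in PNX and 0.46 in SHAM, and that of all genes 0.06, 0.04 and 0.04 in the same order. Wnt2, Notum and Axin2 were the genes lower in each condition and Wnt5a the one higher in each. The groups of 6 arrays did not overlap for 6 of the 9 genes tested and for 23.5% of all genes. With held values the counts past the threshold were 4 in PNX-dnFGFR, 5 in PNX and 6 in SHAM. Of all 11073 genes 3773, 1990 and 2122 passed with held values, in the same order. Without the first bright or the second dim SHAM array the SHAM count was 4 in place of 7, and without the second dim PNX array the PNX count was 3 in place of 5.

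**Figure D3:**
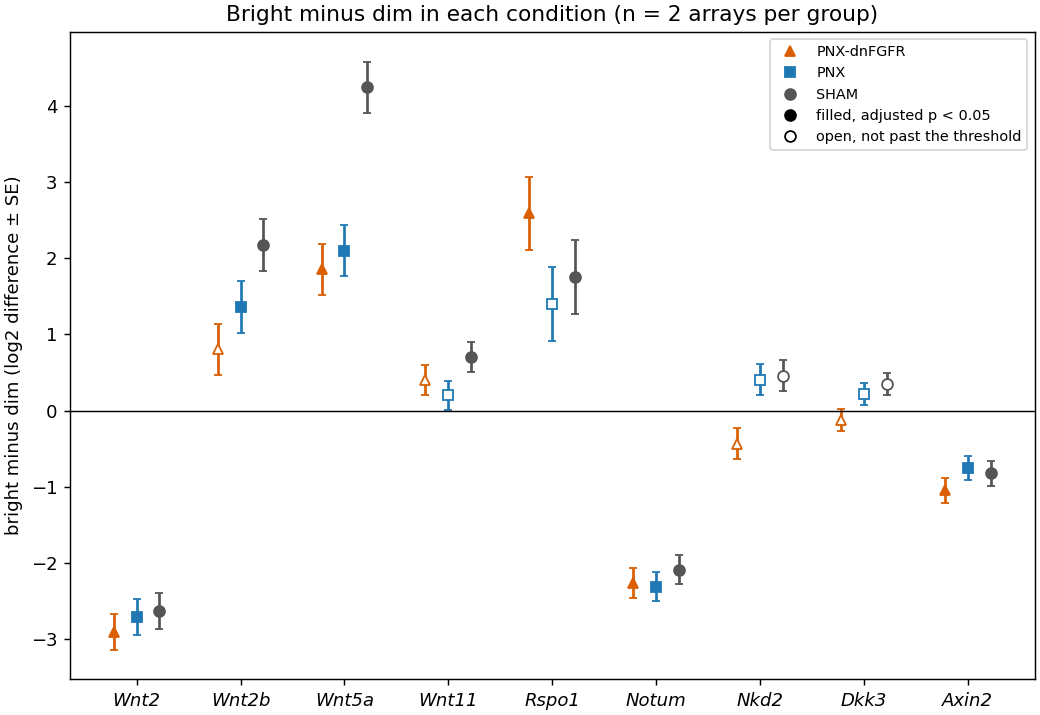
The log2 difference of bright minus dim (vertical axis) for each of the 9 genes tested, by condition (orange triangles PNX-dnFGFR, blue squares PNX, grey circles SHAM), with bars of 1 SE and filled symbols past an adjusted p of 0.05. Wnt2 lies between -2.90 and -2.63 in the 3 conditions, whereas Wnt5a is at 1.85 in PNX-dnFGFR, 2.10 in PNX and 4.24 in SHAM.

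The second set of comparisons asks whether surgery or the dominant negative receptor shifted Wnt signals within a subset. The members that passed did so in bright cells between PNX-dnFGFR and SHAM, where Nkd2 was 2.08-fold lower, Wnt2b 2.66-fold lower and Dkk3 1.52-fold lower. No group had both the sham operation and the dominant negative receptor. In the comparison of PNX-dnFGFR with SHAM, surgery and the receptor therefore cannot be told apart. There 3 of the 9 genes tested passed, all lower, and 5.2% of all genes passed, 2.6% upward and 2.6% downward. At an unadjusted p below 0.05 these counts were 4 of the 9 and 22.8% of all genes. In dim cells limma called 0 of the 9 in the same comparison and 0.0181% of all genes, with 1 of the 9 and 9.52% of all genes at the unadjusted level. As a mean over both subsets it called 0 of the 9 and 2% of all genes, with 3 of the 9 and 21.6% of all genes at the unadjusted level.

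In bright cells, Nkd2 read 6.73 and 6.97 with PNX-dnFGFR, 7.40 and 7.93 with PNX and 7.92 and 7.89 with SHAM. The PNX-dnFGFR arrays were the lowest of the 6, below every dim array as well. The difference from SHAM was -1.06 (± 0.20 SE, adjusted p = 0.0258) and that from PNX -0.82 (adjusted p = 0.148). The first of these failed when any of the 4 arrays compared was left out (-1.17 to -0.94, adjusted p = 0.0857 to 0.156), and the second passed without the first bright PNX array (-1.08, adjusted p = 0.031). The other Nkd2 probe sets gave -0.53 (adjusted p = 0.116) and -0.56 (adjusted p = 0.192) against SHAM. In dim cells the Nkd2 difference from SHAM was -0.17 (adjusted p = 0.853), and the difference between the subsets, -0.89 ± 0.29, did not pass (adjusted p = 0.249).

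Wnt2b was 1.41 lower on the log2 scale in bright PNX-dnFGFR than in bright SHAM cells (-1.41 ± 0.34 SE, adjusted p = 0.0467), and its arrays there did not overlap. In bright PNX against bright SHAM cells it was -1.195 and did not pass (adjusted p = 0.444), though those arrays did not overlap either. Dkk3 read 9.56 and 9.76 on bright PNX-dnFGFR arrays, 9.64 and 9.87 on bright PNX arrays and 10.29 and 10.25 on bright SHAM arrays. Both bright PNX groups lay below the sham arrays and overlapped each other. Its PNX-dnFGFR minus SHAM value was -0.61 (± 0.15 SE, adjusted p = 0.0467) and its PNX minus SHAM value -0.51 (adjusted p = 0.444). The calls of Wnt2b and Dkk3 rest near the threshold: each was kept in 2 of 12 fits that left out an array, those without a bright PNX array. Without the second bright SHAM array the values were -1.23 (adjusted p = 0.249) for Wnt2b and -0.63 (adjusted p = 0.207) for Dkk3, and without the first bright PNX-dnFGFR array -0.95 (adjusted p = 0.233) and -0.51 (adjusted p = 0.236). Neither call was kept with no filter (adjusted p = 0.055 for Wnt2b and 0.053 for Dkk3). The same held in a fit of the groups compared (adjusted p = 0.077 and 0.0712). The comparisons with SHAM share the SHAM arrays.

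**Figure D4:**
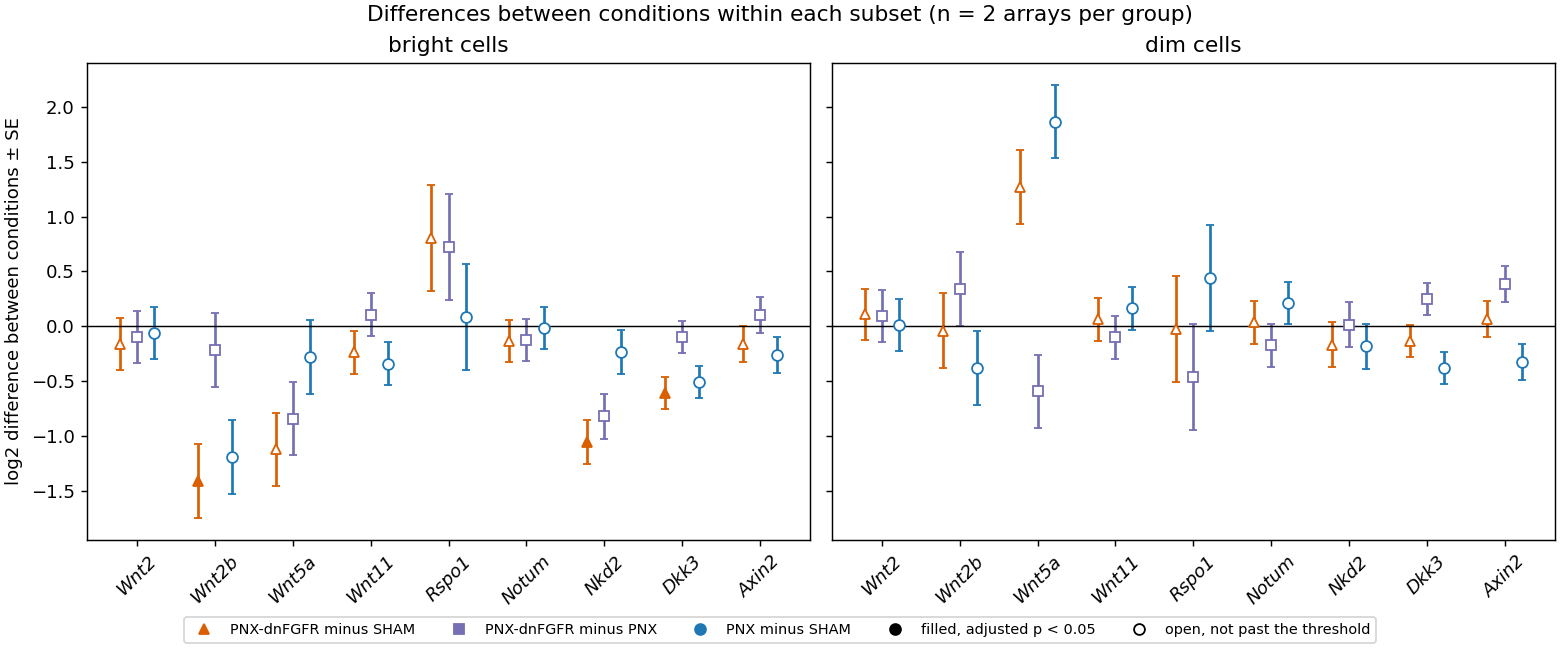
Log2 differences between conditions (vertical axis) within bright cells (left) and dim cells (right) for the 9 genes tested, as PNX-dnFGFR minus SHAM (triangles), PNX-dnFGFR minus PNX (squares) and PNX minus SHAM (circles), with bars of 1 SE; filled symbols passed an adjusted p of 0.05. The filled symbols are Wnt2b at -1.41, Nkd2 at -1.06 and Dkk3 at -0.61 in bright cells, and Wnt5a in dim cells reaches 1.87 in PNX minus SHAM without passing.

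Wnt5a differed between conditions in both subsets by values that did not pass. In dim cells both pneumonectomy groups read above SHAM, with PNX-dnFGFR minus SHAM at 1.27 ± 0.34 (adjusted p = 0.333) and PNX minus SHAM at 1.87 ± 0.34 (adjusted p = 0.11). The arrays of dim SHAM overlapped with neither, but lay under the filter level, and the held values were 0.47 and 1.04. In bright cells PNX-dnFGFR minus SHAM was -1.12 ± 0.34 (adjusted p = 0.0842), PNX-dnFGFR minus PNX -0.84 (adjusted p = 0.35) and PNX minus SHAM -0.28 (adjusted p = 0.868), and the 3 groups of arrays did not overlap. The first of these passed with held values (adjusted p = 0.0315), with the mean of probe sets (-1.04, adjusted p = 0.0336), in a fit of the groups compared (adjusted p = 0.0298) and with the other Wnt5a probe set (-0.95, adjusted p = 0.0374), that is in 4 of 10 other settings. It passed in 0 of the 12 limma fits that left out an array (-1.15 to -1.10, adjusted p = 0.0535 to 0.285).

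In the other comparisons of conditions limma called 0 of the 9 genes tested. Between PNX-dnFGFR and PNX the genes called among all were 0.00903% in bright cells, 0% in dim cells and 0% over both subsets. At an unadjusted p below 0.05 these comparisons had 2 of the 9 and 12.6% of all genes in bright cells, 1 and 7.79% in dim cells and 2 and 12.5% over both subsets. Between PNX and SHAM the genes called among all were 0.00903% in bright cells, 0.0452% in dim cells and 0.144% over both subsets. At the unadjusted level these had 2 of the 9 and 8.24% of all genes in bright cells, 2 and 12.2% in dim cells and 4 and 16.1% over both subsets. Dkk3 as the mean over subsets was -0.45 in PNX minus SHAM (± 0.10 SE, adjusted p = 0.106), with every PNX array below every SHAM array of its subset. Axin2 in dim cells was 0.39 in PNX-dnFGFR minus PNX (adjusted p = 0.621) and -0.33 in PNX minus SHAM (adjusted p = 0.466), and the other Axin2 probe set gave -0.01 for the first. Tested as differences of effect between the subsets, 0 of the 9 genes passed in any of the 3 pairs of conditions. For PNX-dnFGFR minus SHAM 0.126% of all genes passed, and 4 of the 9 and 12.7% of all genes had an unadjusted p below 0.05. For PNX-dnFGFR minus PNX the values were 0%, 1 of the 9 and 8.21%, and for PNX minus SHAM 0%, 1 of the 9 and 4.47%. On simulated data for the last, a difference of 1 log2 unit was recovered in 0% of changed genes and 2 units in 93%. Smaller differences between the subsets are thus not shown to be absent.

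The order of the groups followed the subset for most of these genes. For Wnt2 and Notum the 3 dim groups came first and neighbours within a subset overlapped. For Wnt5a the order was bright SHAM, bright PNX, bright PNX-dnFGFR, dim PNX, dim PNX-dnFGFR and dim SHAM, and among neighbours the dim PNX and dim PNX-dnFGFR arrays overlapped. For Dkk3 bright SHAM and dim SHAM were the highest of the 6, and for Nkd2 bright PNX-dnFGFR was the lowest and did not overlap with its neighbour.

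The genes with the pattern most like each member over the 12 arrays were taken by Pearson's r among all genes tested, as a description. Fitm2 (r = 0.991), Raph1 and Crim1 were nearest to Wnt2, and Pard6g (0.989), Dmd and Mapt to Notum. Pls3 (0.976), Tshz3 and Ltbp2 were nearest to Wnt5a, and Zim1 (0.966), Atp6v0e2 and Apod to Wnt2b. Npr1 (0.964), Ptpn13 and Tmtc2 were nearest to Rspo1, and Luc7l2 (0.972), Wsb1 and Srrm2 to Axin2. In these 6 members the bright and dim arrays are separate, so that r spans the gap between the subsets. For the members without that gap the highest values were lower, with Card10 (0.929) nearest to Nkd2.

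The other genes of the pathway were read from lists of ligands, receptors, secretion factors, inhibitors, transducers and targets, 96 genes in all. Of these 91 had a probe set and 66 were tested, and 31 were higher and 10 lower in bright cells over the conditions, with a median of 0.30 against 0.05 for all genes. These are 47% and 15.2% of the 66, where 28.5% of all genes were higher and 19.3% lower, and the counts of the lists that follow are to be read against the same shares. The secreted antagonists Sfrp1 and Sfrp2, the receptor genes Fzd4 and Fzd2 and the sulfatase Sulf1, which edits the heparan sulfates that hold Wnts, were among those higher in bright cells. The ubiquitin ligase Znrf3, the co-receptor Lrp5 and the membrane inhibitor Apcdd1 were among those lower. With held values 27 were higher and 9 lower, and with a stricter filter 46 were tested and 20 were higher and 9 lower. Over all genes, 5112 of 11073 passed with held values and 4021 of 6921 with the stricter filter, in either direction.

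Of 6 other ligands tested, 3 were higher and 1 lower. Wnt9a ranged from 5.99 to 6.78 on bright arrays and from 4.75 to 5.35 on dim arrays, with a difference of 1.56 (adjusted p = 2.28e-05), and Wnt4 differed by 2.12 (adjusted p = 0.000429). Wnt10b had 1.02 (adjusted p = 0.00142, held value 0.40) and Wnt3a -0.29 (adjusted p = 0.0375), which did not pass with held values (adjusted p = 0.0815). Among 4 genes of the R-spondin axis, the receptor Lgr5 was higher at 2.77 (adjusted p = 6.03e-05, held value 0.53), and Znrf3 at -1.48 (adjusted p = 3.7e-05) and Rspo4 at -1.69 (adjusted p = 0.000392) were lower. Lgr5 lay under the filter level on every dim array, between 2.08 and 2.88. Lgr4 had 0.43 (adjusted p = 0.0373), which did not pass with held values (adjusted p = 0.217).

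Of 13 Frizzleds and co-receptors tested, 6 were higher and 3 lower. Fzd4 differed by 2.25 (adjusted p = 5.55e-07) and Fzd2 by 2.15 (adjusted p = 1.36e-05), whereas Ptk7 differed by -1.47 (adjusted p = 2.41e-06) and Lrp5 by -1.05 (adjusted p = 3.93e-05). Of 6 secretion genes 3 were higher and 1 lower: Sulf1 had 3.79 (adjusted p = 1.1e-07), the glypican Gpc4 1.97 (adjusted p = 0.000107), the Wnt carrier Wls 1.14 (adjusted p = 0.000148) and the Wnt acyltransferase Porcn -0.64 (adjusted p = 0.00378). Of 8 other inhibitors 5 were higher and 1 lower. Sfrp1 had 3.30 (adjusted p = 3.34e-05), with 9.07 to 10.41 on bright arrays and 5.61 to 8.09 on dim arrays. Apcdd1 had -1.12 (adjusted p = 0.000113), Trabd2b 0.95 (adjusted p = 0.000142) and Frzb 1.32 (adjusted p = 0.000167), which did not pass with held values (0.23, adjusted p = 0.0729). Sfrp2 had 3.86 (adjusted p = 0.00174), but ranged from 5.23 to 10.75 on bright arrays and from 3.90 to 5.72 on dim arrays, so that the subsets overlapped.

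Among 22 transducers tested 8 were higher and 1 lower, against 28.5% and 19.3% of all genes, with beta-catenin itself, Ctnnb1, at 1.05 (adjusted p = 3.23e-05), the planar polarity gene Prickle1 at 1.53 (adjusted p = 0.000194) and Dvl1, the 1 lower and named after its value was seen, at -0.47 (adjusted p = 0.00238). Among 11 common targets of beta-catenin, some of them also in the lists above, 5 were higher and 3 lower. Myc had 2.76 (adjusted p = 1.47e-05) and Bambi 1.69 (adjusted p = 2.08e-05), whereas Tnfrsf19 had -2.05 (adjusted p = 1.55e-06). Znrf3 at -1.48 and Apcdd1 at -1.12 were also lower, and Lgr5 at 2.77 (held value 0.53) was also higher. Targets thus lay on both sides, and Axin2 and Notum were on the side of Tnfrsf19, Znrf3 and Apcdd1.

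**Figure D5:**
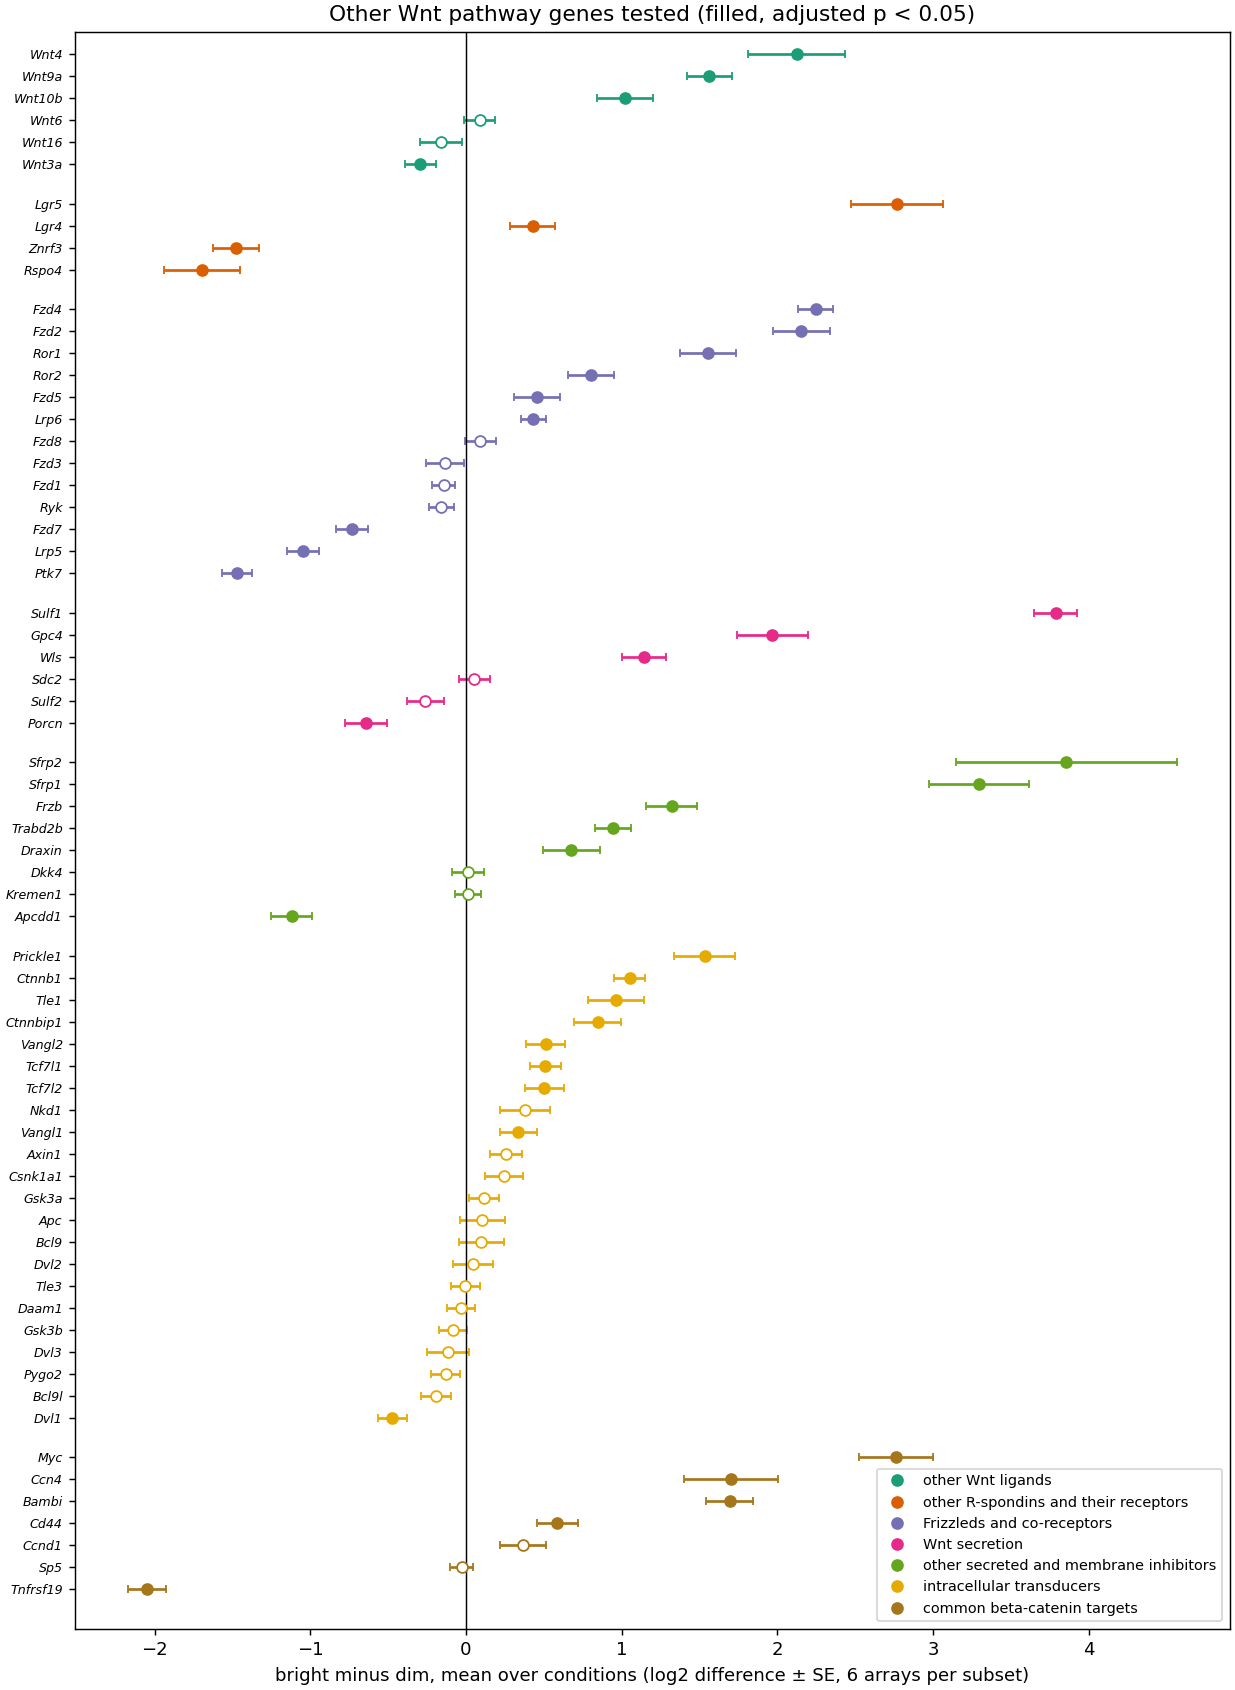
Bright minus dim (horizontal axis, log2 difference over the 3 conditions with bars of 1 SE, 6 arrays per subset) for the other pathway genes tested, coloured by list, with filled symbols past an adjusted p of 0.05. Sfrp2 at 3.86, whose arrays overlapped between the subsets, and Sulf1 at 3.79 lie farthest to the right and Tnfrsf19 at -2.05 farthest to the left.

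Between conditions few of these 66 genes passed. In bright cells PNX-dnFGFR minus SHAM had 2 higher, the receptor tyrosine kinase Ror1, a receptor for Wnt5a, at 1.73 (adjusted p = 0.0213) and the secreted Draxin at 1.45 (adjusted p = 0.0364), and 2 lower, Porcn at -1.13 (adjusted p = 0.0321) and Tnfrsf19 at -1.09 (adjusted p = 0.0258). In this comparison 2.6% of all genes were higher and 2.6% lower, against 3.03% each of the 66. Draxin lay under the filter level on both bright SHAM arrays, at 4.61 and 4.33, and did not pass with held values (0.82, adjusted p = 0.105). Ror1 read 6.21 and 6.30 on bright PNX-dnFGFR arrays, 5.57 and 4.86 on bright PNX arrays and 4.98 and 4.07 on bright SHAM arrays. Its PNX-dnFGFR arrays were the highest, and the sham arrays lay under the filter level, where the held value was 1.15 (adjusted p = 0.00595). On dim arrays Ror1 read 3.52 to 4.13, all under the filter level. As the mean over both subsets it was the 1 of the 66 that passed, where 0.984% of all genes were higher, and since its dim signals are under the filter level the held value of 0.58 (adjusted p = 0.0298) is given. In the other 5 comparisons within a subset limma called 0 of the 66, where 0% to 0.0452% of all genes passed. At an unadjusted limma p below 0.05, PNX-dnFGFR minus PNX had 13 of the 66 in bright and 5 in dim cells, against 12.6% and 7.79% of all genes. PNX minus SHAM had 3 in bright and 8 in dim cells, against 8.24% and 12.2%. In dim cells PNX-dnFGFR minus SHAM had 8, against 9.52%. Fgfr2, the gene of the receptor whose dominant negative form was expressed, differed by 0.61 in bright cells (adjusted p = 0.363) and by -0.66 in dim cells (adjusted p = 0.603) between PNX-dnFGFR and SHAM, and whether its probe set reads the transgene is not known here.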

How the data were processed

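Log2 signals of 12 Affymetrix mouse arrays were used as the authors deposited them, made with RMA per the submitters' processing notes, which give no version or options. Per the labels' protocols, RNA of 2000 sorted cells was amplified over 25 cycles. The deposited log2 values lay between 1.52 and 13.05. Medians of single arrays lay between 5.06 and 5.13, no value was missing, and no column was duplicated. The number of arrays, 2 per group, limits the precision, with a median residual standard deviation of 0.199 log2.

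Of 45141 probe sets, 104 controls were left out, 28898 had 1 gene in the array's annotation, 551 several and 15588 none; symbols were updated by Entrez identifier for 28689 of 29449 annotated probe sets. The probe set with the highest mean stood for a gene. A gene was tested if its signal exceeded the median of all values, log2 5.101, on at least 2 arrays. Using limma 3.58.1 (R 4.3.3), 1 mean for each group was fitted over all 12 arrays and 11073 genes (16 contrasts), and p-values were adjusted by Benjamini and Hochberg's method within each contrast, with a threshold of 0.05. All adjusted p-values are from limma. Subsets were fitted as independent samples, though they may share animals.

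On simulated data, changes of 1 log2 unit were recovered in 91.5% of 200 changed genes among 11073 for bright minus dim over conditions and 56.5% for PNX minus SHAM in bright cells. For the difference between the subsets in PNX minus SHAM, 0% were recovered at 1 log2 unit and 93% at 2 units. These rates hold for 200 changed genes. In the data 5293 genes passed bright minus dim over conditions and 1 passed PNX minus SHAM in bright cells, so recovery there can differ.

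The members, lists and comparisons were chosen with earlier results of these data known. All members were named; of each Wnt list, genes among the 4 with the smallest adjusted p past the threshold in bright minus dim over conditions or the 2 in another comparison, and Dvl1; of the mesothelial list, the 2 with the highest mean, Upk3b, Wt1, Upk1b and those never above the filter. Motifs were searched in RefSeq promoters of build GRCm38.p6. Alternatives tried were other filters, held values, another quantile normalization, the mean of probe sets, other probe sets, a variance trend, a fit of the groups compared, replicate blocks and leaving out each array.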

Additional observations from a re-analysis of the deposited data

Results flagged for a closer look

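Some members had effects that ran in opposite directions in the groups compared, with every array of one group on one side and every array of the other group on the other. With 2 arrays per group such a separation is weak, and its share over all genes is not given here. Wnt5a was lower in bright and higher in dim cells in PNX-dnFGFR than in SHAM, and the difference between the subsets was -2.39 ± 0.48 log2 (adjusted p = 0.0973, held value -1.59). In PNX minus SHAM that difference was -2.15 ± 0.48 (adjusted p = 0.778, held value -1.31). For both, the unadjusted test passed and the test adjusted over all genes did not.

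For the inhibitors the opposite directions were those of bright minus dim. Nkd2 was below dim cells in PNX-dnFGFR and above them in SHAM, with a difference of -0.89 ± 0.29 (adjusted p = 0.249). Dkk3 was below dim cells in PNX-dnFGFR and above them in PNX and in SHAM, with differences of -0.34 ± 0.20 against PNX (adjusted p = 0.68) and -0.47 ± 0.20 against SHAM (adjusted p = 0.383).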

How the results depend on the processing

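Of 1318 recomputed values of the 61 member values reported, 1248 kept their direction and side of the threshold, 54 lost the threshold, 14 gained it and 2 changed sign: bright minus dim of Nkd2 over conditions was -0.12 and PNX-dnFGFR minus PNX of Axin2 in dim cells -0.013 with another probe set. The count of members past the threshold over conditions was 7 without any array, and leaving out arrays gave 4 to 7 in SHAM (7 with all), 3 to 5 in PNX (5), 5 to 7 in PNX-dnFGFR (5), 0 to 3 in bright PNX-dnFGFR minus SHAM (3), 0 to 1 in bright PNX-dnFGFR minus PNX (0) and 0 to 1 in PNX-dnFGFR minus SHAM over subsets (0). Bright PNX-dnFGFR minus SHAM had 1 with no filter. PNX-dnFGFR minus SHAM over subsets had 1 with the stricter filter, held values, the mean of probe sets or a fit of the groups compared, and 2 with a variance trend. Over all genes, bright PNX-dnFGFR minus SHAM called 576, from 5 (without the second bright SHAM array) to 910 (without a bright PNX array) and 825 with held values. The cause was not tested. Other Wnt genes higher over conditions numbered 20 with the stricter filter, against 31.

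The replicate numbers were not shown to pair samples: over the 15 pairs of groups, deviations of arrays with the same number correlated at -0.185 to 0.347, with 0.347 in bright PNX-dnFGFR with bright SHAM and 0.128, 0.003 and 0.005 for bright with dim in PNX-dnFGFR, PNX and SHAM. With the replicate number as a block, members past the threshold were 7 over conditions, 5 in PNX-dnFGFR, 5 in PNX and 7 in SHAM, and Wnt2b in bright PNX-dnFGFR minus SHAM did not pass (adjusted p = 0.0572).

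Signals near 5.10 are close to background, which limits Rspo1, Rspo3, Wnt11, Notum and Pdgfra in bright cells and Wnt11 and Wnt5a in dim SHAM cells. The other dim Wnt11 arrays are limited likewise.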
